A study of Mus musculus with 96 samples.

Results

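Ribosome biogenesis genes of the nucleolus were followed as a list of 40 genes, all 40 of which were found among the 36935 gene symbols of the deposited count table. The list was given by name and not by level, with earlier results of these data known. It holds 4 genes of RNA polymerase I and its factors, 6 of general nucleolar proteins, 4 of box C/D and 4 of box H/ACA small nucleolar ribonucleoproteins, 11 of small-subunit assembly and 11 of large-subunit assembly. The libraries came from a mouse line with the variant P620A of PADI6, a protein of the oocyte's cytoplasmic lattices. Each library was labelled as 1 metaphase II oocyte, 1 blastomere of a 2-cell embryo or a negative control.

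The labels gave 22 libraries each to wild-type oocytes (Padi6+/+), mutant oocytes (Padi6P620A/P620A), wild-type 2-cell blastomeres (Padi6+/+) and mutant 2-cell blastomeres (Padi6MatP620A/+, the variant coming from the mother), and 8 to negative controls. All eggs came from females of 4 to 8 weeks given PMSG and hCG, 2 hormones that make many eggs ripen together, and the embryos from fertilisation in vitro with sperm of males of 8 to 12 weeks. The labels name no strain, no animal and no embryo, so sister blastomeres could not be identified. Cells are not replicates of an animal. Each set of libraries was therefore treated as a single sample, and differences are described without tests or p-values.

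Ribosomes are built in the nucleolus, where RNA polymerase I copies the ribosomal DNA into a long precursor. Guided by small nucleolar RNAs, box C/D particles methylate the precursor and box H/ACA particles convert uridines to pseudouridines, while assembly factors fold and cut it into the RNAs of the small and the large subunit. A grown mouse oocyte stores ribosomes and assembly factors, its nucleolus is a compact body with little activity, and working nucleoli form again in the embryo after genome activation. The measurements here are of polyadenylated messenger RNA for these proteins, not of ribosomal RNA or of nucleolar activity.

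Libraries were placed by their own RNA, because the stage words of the labels and the RNA disagreed. Of 96 libraries, 79 reached both 100000 gene counts and 4000 detected genes. A library was called oocyte-like with 100 CPM or more (counts per 1000000) of Mos, the kinase that holds the egg in metaphase, and 2-cell-like with less Mos and a count of Zfp352, a gene switched on at the 2-cell stage. There were 39 oocyte-like libraries (12 labelled wild-type oocyte, 14 wild-type 2-cell, 9 mutant 2-cell, 4 negative control) and 39 2-cell-like libraries (7 labelled wild-type oocyte, 19 mutant oocyte, 11 mutant 2-cell, 2 negative control). One kept library, number 86, fell in neither. Markers that the rule did not use mostly went with the sets: the 10 oocyte markers took a median of 3.41% of counts in oocyte-like and 0.433% in 2-cell-like libraries, and the 9 markers of the 2-cell stage took 0.000205% and 0.0716%. Of those 9, Tdpoz4, AF067061 and Eif1ad6 had no count in any oocyte-like library, Zscan4d had one in 16, and Krt73 did not follow the sets, with a count in 20 oocyte-like and 17 2-cell-like libraries. Of the 10 oocyte markers, Ooep hardly differed, with medians of 80.7 and 76.6 CPM, and Bmp15 had 3772 and 2235 CPM. The marker lists, too, were chosen with earlier results of these data known. The 19 cumulus and granulosa markers took 0.00486 to 1.23% of counts (median 0.0445%) in oocyte-like and 0 to 0.0162% (median 0.00263%) in 2-cell-like libraries, where 5 of them were at 0. Total counts ran from 162539 to 5762563 (median 3235838) and from 503644 to 3185910 (median 1608305).

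A gene's level was its CPM in each library. The sets were compared by the ratio of their library medians for genes with a median of at least 10 CPM in 1 set, and a ratio of at least 2 either way was counted as higher or lower. Beside it stands the ratio of pooled levels, which are all counts of a set over all its totals, with an exact 95% interval. The reads carried no molecular identifiers, so these intervals cover counting error only. Gene lengths were not used, so levels were not compared between genes.

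Small-subunit assembly genes of the list were mostly lower in 2-cell-like than in oocyte-like libraries by medians, but not by pooled levels. A few of the list were higher, led by Rrp9. Of the 40 genes, 32 could be compared by medians. Lower were 15, beside 36.7% of all 8202 genes compared, and higher were 4, beside 18.1% of them. The other 13 lay between. The median log2 ratio was -0.81 over the 32 genes and -0.37 over all genes compared, with genes at a median of 0 in 1 set ranked at the ends. Pooled levels gave 10 lower genes of 36, beside 26.9% of all genes, and 5 higher, beside 22.2%, with a median log2 ratio of -0.38 against -0.02. The lower and higher counts of the list were thus below or near the shares of all genes, apart from the lower count by medians. Under both measures at once 9 genes were lower (24.8% of all genes) and 3 higher (16.0%).

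The 40 genes together took 2036 to 3769 CPM (median 2501) in oocyte-like and 703 to 3506 CPM (median 1871) in 2-cell-like libraries, so the ranges overlapped. By label, the 2-cell-like medians were 1530.1 CPM in wild-type oocyte, 1871 CPM in mutant oocyte and 1514 CPM in negative control libraries. Those labelled mutant 2-cell had 2471 CPM, within the 2331 to 2694 CPM of the labels of the oocyte-like set. The median library had a count for 38 of the 40 genes in the oocyte-like and 31 in the 2-cell-like set, and for 30 and 25 once each was thinned to 100000 counts. Many members were at 0 in part of the 2-cell-like libraries, which lowers a median more than a pooled level, and the genes detected over the whole table moved the same way, with medians of 8549 and 7566 after thinning. With thinned counts 16 of 34 members were lower, beside 45.3% of all genes, and 5 higher, beside 20.9%. Without the 11 oocyte-like libraries at or above 0.1% cumulus markers 15 of 32 were lower, beside 35.9%, and 5 higher, beside 19.6%. Without the libraries labelled negative control 13 of 32 were lower, beside 37.8%, and 4 higher, beside 17.6%, with Gnl3 and Rrp1b no longer past the limit.

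**Figure D1:**
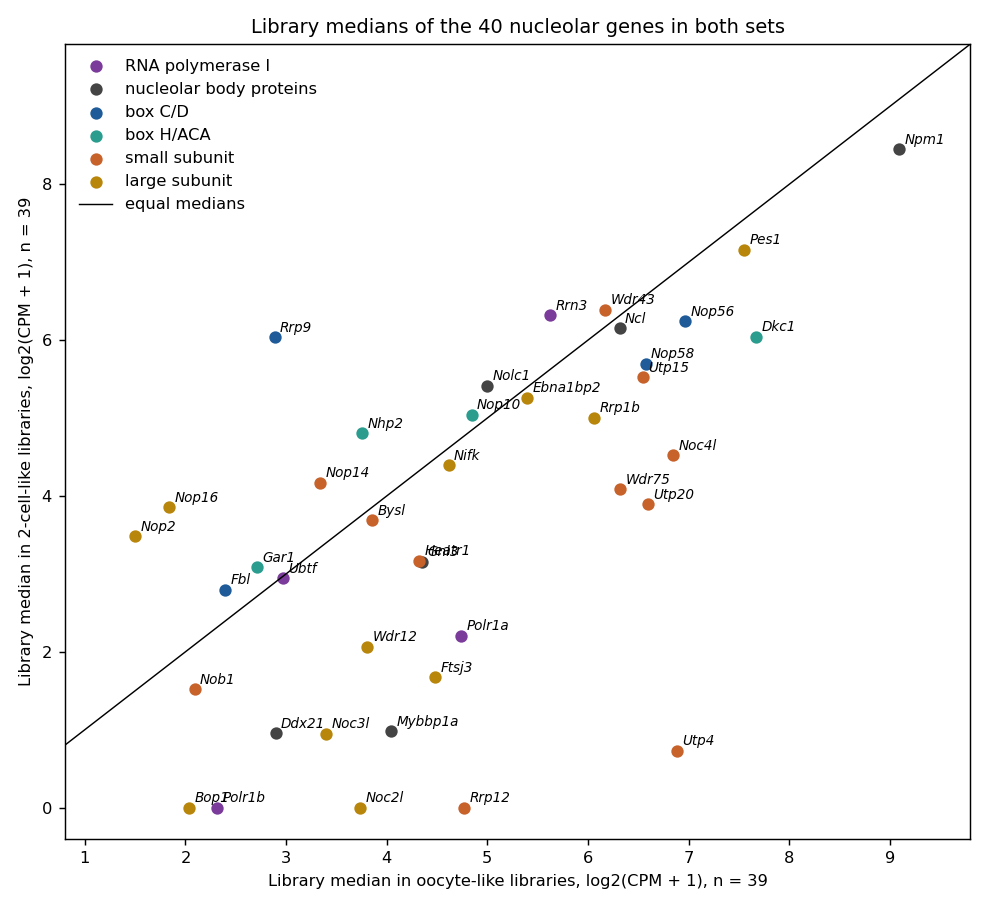
Library medians of the 40 genes on a log2(CPM + 1) scale, with the 39 oocyte-like libraries on the horizontal and the 39 2-cell-like libraries on the vertical axis, coloured by role; the line marks equal medians. Utp4, Utp20, Wdr75 and Noc4l of small-subunit assembly sit far below the line, and Rrp9, Nop16 and Nop2 above it.

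The promoters of the 3 most separated genes that were lower in 2-cell-like libraries and of the most separated gene that was higher are shown so that the regulatory sequence can be read beside their levels. They run from 250 bases before to 50 after the RefSeq gene start on build GRCm38.p6, which is not the build of the counts, and are given 5′ to 3′ on the gene's strand. Capitals mark CACGTG, the E-box core bound by MYC and related factors, which reads the same on both strands. Utp4 (chr8:106893390-106893689, plus strand), Utp20 (chr10:88826765-88827064, minus strand), Noc4l (chr5:110653333-110653632, minus strand) and Rrp9 (chr9:106477059-106477358, plus strand) follow in that order.
Utp4: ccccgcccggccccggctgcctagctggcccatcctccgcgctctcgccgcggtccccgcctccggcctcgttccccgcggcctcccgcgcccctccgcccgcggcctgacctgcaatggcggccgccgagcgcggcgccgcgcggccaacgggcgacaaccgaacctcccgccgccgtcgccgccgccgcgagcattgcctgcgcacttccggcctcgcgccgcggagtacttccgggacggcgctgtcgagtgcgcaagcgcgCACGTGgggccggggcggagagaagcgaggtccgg
Utp20: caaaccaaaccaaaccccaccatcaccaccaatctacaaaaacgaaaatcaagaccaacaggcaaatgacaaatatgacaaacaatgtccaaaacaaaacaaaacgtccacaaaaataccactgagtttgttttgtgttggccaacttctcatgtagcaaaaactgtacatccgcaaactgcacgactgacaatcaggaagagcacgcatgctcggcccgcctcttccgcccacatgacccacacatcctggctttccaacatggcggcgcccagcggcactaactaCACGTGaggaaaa
Noc4l: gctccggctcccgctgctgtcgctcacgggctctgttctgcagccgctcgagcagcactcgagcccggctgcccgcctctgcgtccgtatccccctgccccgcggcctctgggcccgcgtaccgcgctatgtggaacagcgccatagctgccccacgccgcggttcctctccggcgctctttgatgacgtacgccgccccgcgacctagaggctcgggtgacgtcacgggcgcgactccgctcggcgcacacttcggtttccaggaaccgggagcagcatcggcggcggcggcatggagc
Rrp9: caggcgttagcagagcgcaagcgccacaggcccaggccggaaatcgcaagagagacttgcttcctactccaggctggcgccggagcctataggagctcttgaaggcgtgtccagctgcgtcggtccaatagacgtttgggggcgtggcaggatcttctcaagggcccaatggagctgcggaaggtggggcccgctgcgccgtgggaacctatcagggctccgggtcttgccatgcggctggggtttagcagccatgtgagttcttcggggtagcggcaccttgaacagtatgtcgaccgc

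Utp4 and Utp20 each held 1 E-box core, both past the annotated start, and Noc4l and Rrp9 held none. Among the list, 36 genes had an entry in the promoter table, and Fbl, Bop1, Rrp12 and Npm1 did not. The core stood in 7 of the 36 (Mybbp1a, Nop2, Pes1, Rrn3, Utp20, Utp4 and Wdr43), or 19.4%, and in 8.09% of the 27025 genes of the table. It stood in 3 of 14 lower genes, 1 of 4 higher genes, 3 of 12 between and 0 of 6 not compared. The core holds a CpG, and the members' 45 promoters had a median GC content of 59.3% against 52.7% over all promoters. Some genes, such as Ubtf, had several promoters among the 45. The part of GC content in the share of the core was not tested. The letters TATAAA, searched on both strands, stood in 2 of 36 members (Dkc1 and Pes1), or 5.56%, and in 15.7% of all genes. These matches describe letters, not binding.

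Genes of RNA polymerase I itself differed among themselves. Polr1a, the largest catalytic subunit, had 1.80 to 92.3 CPM (median 25.7) in oocyte-like and 0 to 79.6 CPM (median 3.61) in 2-cell-like libraries. It had a count in all 39 oocyte-like and in 23 2-cell-like libraries, and its pooled level was 2.04 times higher in the oocyte-like set (interval 1.90 to 2.20). The ranges overlapped almost fully.

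Polr1b, the second-largest subunit, went the other way in part of the libraries. It had 0 to 24.1 CPM (median 3.98) in oocyte-like libraries and 0 to 152 CPM (median 0) in 2-cell-like ones, and its medians were too low to be compared. Yet 13 of the 39 2-cell-like libraries lay above every oocyte-like library, and its pooled level was 3.82 times higher there (interval 3.47 to 4.20). Of the 2-cell-like libraries, 19 had a count at all, and with a filter of 1 CPM the medians called it lower, the opposite of the pooled levels.

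Of the factors that bring the polymerase to its template, Rrn3 lay between and Ubtf was not compared. Rrn3, which couples the polymerase to its promoter, had 0 to 124 CPM (median 48.4) and 1.96 to 244 CPM (median 78.9), a pooled ratio of 1.40 (interval 1.35 to 1.46) for the 2-cell-like over the oocyte-like set. It was among the 6 largest ratios of medians without reaching 2. Ubtf, which binds along active ribosomal DNA, had medians of 6.83 and 6.69 CPM, both too low to be compared. Its highest level was 52.9 CPM in oocyte-like and 181 CPM in 2-cell-like libraries, 6 of which lay above every oocyte-like one. Its call depended on the setting: higher with the mean of CPM and lower after thinning.

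Of the 6 general nucleolar proteins, 5 were compared, of which 2 were lower, beside 36.7% of all genes, and 3 lay between. Ncl, nucleolin, a shell protein of the nucleolus, had 34.3 to 183 CPM (median 78.5) in oocyte-like and 13.2 to 287 CPM (median 70.1) in 2-cell-like libraries. Its pooled ratio was 1.05 (interval 1.02 to 1.08), and it had a count in every library of both sets. Npm1, nucleophosmin, which forms the granular part of the nucleolus, had 178 to 1289 CPM (median 543) and 136 to 1092 CPM (median 349), a pooled ratio of 0.581 (interval 0.573 to 0.590). The mouse genome holds near-identical processed copies of Npm1, and how the authors' counting treated them is not given in the sources used here, so its level is uncertain.

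Of the other 4 genes of that group, Nolc1, a chaperone of small nucleolar particles, stayed between with medians of 30.9 and 41.6 CPM. Mybbp1a, a nucleolar binding partner of MYB, had 1.04 to 74.0 CPM (median 15.5) in oocyte-like and 0 to 83.4 CPM (median 0.970) in 2-cell-like libraries. Its pooled level was 2.09 times higher in the oocyte-like set (interval 1.91 to 2.28). Gnl3, nucleostemin, was lower by medians, 19.4 against 7.90 CPM, but not by pooled levels, with a ratio of 0.627. Ddx21, an RNA helicase, was too low to compare, with medians of 6.44 and 0.942 CPM.

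**Figure D2:**
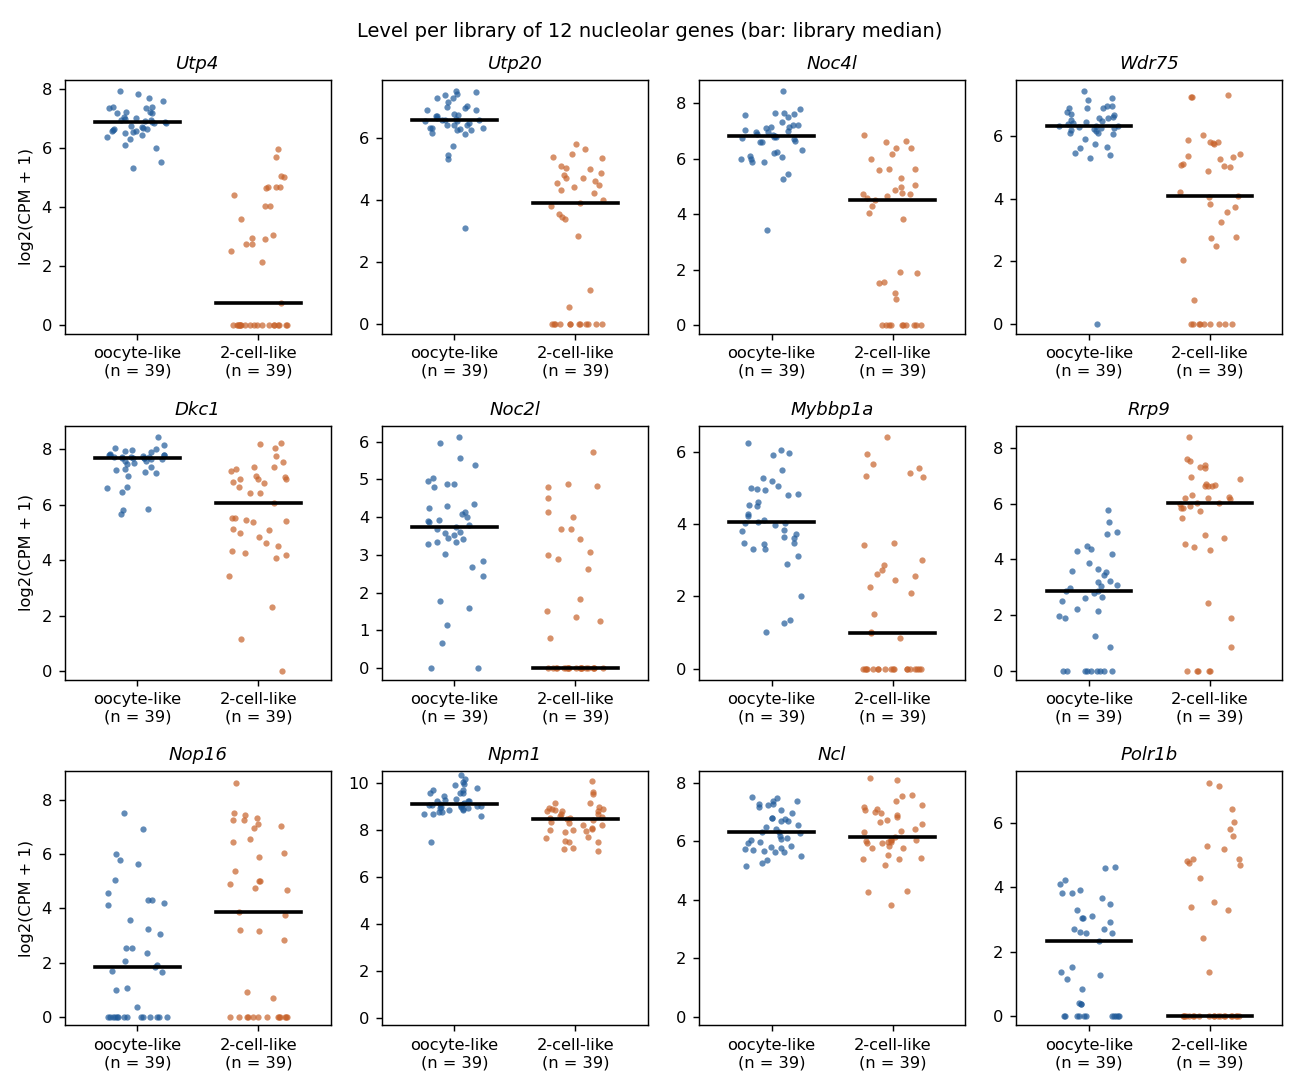
Level of 12 of the genes in every library, log2(CPM + 1) on the vertical axis, for 39 oocyte-like and 39 2-cell-like libraries; each point is a library and the bar the median. Utp4, Utp20 and Noc4l are high in nearly all oocyte-like libraries and spread from 0 upward in 2-cell-like ones, Rrp9 shows the reverse, and Npm1 and Ncl overlap.

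Among box C/D proteins, Rrp9 stood apart from the other 3. Rrp9 is the protein particular to the U3 particle, which guides early cuts on the way to the small subunit. It had 0 to 53.4 CPM (median 6.39) in oocyte-like and 0 to 331 CPM (median 64.5) in 2-cell-like libraries. Of the 2-cell-like libraries, 24 of 39 lay above every oocyte-like one, and the pooled level was 8.28 times higher (interval 7.75 to 8.86). By label, its median was 22.7, 71.4 and 98.9 CPM in 2-cell-like libraries labelled wild-type oocyte, mutant oocyte and mutant 2-cell, and 4.76 to 9.09 CPM over the labels of the oocyte-like set.

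Fbl, fibrillarin, the methyltransferase of all box C/D particles, was low in both sets, with medians of 4.25 and 5.96 CPM and highest levels of 48.0 and 42.3 CPM. It was not compared by medians, and its pooled ratio was 1.45. The core proteins Nop56 and Nop58, which hold the particle together with fibrillarin, lay between, at 124 against 74.7 and 94.2 against 50.9 CPM. Nop58 passed the limit in pooled levels, 2.09 times higher in the oocyte-like set (interval 2.02 to 2.18), and by medians with TMM, with DESeq2 size factors and after thinning. For both genes, the median of CPM was lower in the 2-cell-like set without reaching the limit.

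The box H/ACA proteins did not move together. Dkc1, dyskerin, the enzyme that makes pseudouridine, had 50.1 to 344 CPM (median 203) in oocyte-like and 0 to 299.8 CPM (median 65.0) in 2-cell-like libraries. Its pooled level was 2.37 times higher in the oocyte-like set (interval 2.30 to 2.44). Nhp2, a core protein of the same particle, had 0 to 334 CPM (median 12.5) and 0 to 432 CPM (median 26.9), higher by medians but with a pooled ratio of 1.52 (interval 1.45 to 1.59). By label, its 2-cell-like median was 12.4 CPM in mutant oocyte and 36.9 CPM in wild-type oocyte libraries. It was 71.8 CPM in mutant 2-cell and 16.1 CPM in negative control ones. Nop10, the smallest core protein, had medians of 27.7 and 31.9 CPM, and Gar1 was too low to compare, at 5.55 and 7.49 CPM.

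Of the 11 genes of small-subunit assembly, 10 were compared by medians: 7 were lower, beside 36.7% of all genes, 3 lay between and 0 were higher. Their median log2 ratio was -1.77, with Rrp12, at a median of 0 in 2-cell-like libraries, ranked as the lowest. By pooled levels 4 of 11 were lower, beside 26.9% of all genes, and 1 was higher, beside 22.2%. Under both measures 4 were lower, beside 24.8% of all genes: Utp4, Utp20, Wdr75 and Noc4l. These are parts of the small-subunit processome, the large particle that forms on the young precursor.

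Utp4, the processome protein also called cirhin, was the most separated gene of the list. It had 39.2 to 241 CPM (median 117) in oocyte-like libraries and 0 to 61.5 CPM (median 0.657) in 2-cell-like ones. Of the oocyte-like libraries, 37 of 39 lay above every 2-cell-like library. The pooled level was 14.2 times higher in the oocyte-like set (interval 13.0 to 15.4). Its median was 103 to 126 CPM over the 4 labels of the oocyte-like set and 0 to 17.9 CPM over the 4 labels of the 2-cell-like set, so every label of the oocyte-like set had a higher median than every label of the 2-cell-like set. Libraries labelled wild-type oocyte, mutant 2-cell and negative control were found in both sets, and the other 2 labels in 1 set each.

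Utp20, a large scaffold of repeats that bind the precursor, had 7.63 to 181 CPM (median 95.6) and 0 to 55.5 CPM (median 13.9). There 35 of 39 oocyte-like libraries lay above every 2-cell-like one, and the pooled level was 6.65 times higher (interval 6.24 to 7.09). Noc4l, which pairs with Nop14, had 9.81 to 345 CPM (median 114) and 0 to 116 CPM (median 22.0), with 18 oocyte-like libraries above every 2-cell-like one. Its pooled level was 4.44 times higher in the oocyte-like set (interval 4.22 to 4.67). For Utp20 the sets overlapped in few oocyte-like libraries, while for Noc4l the highest 2-cell-like level lay above the oocyte-like median.

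Wdr75, which acts with Utp4 in a subcomplex that also aids transcription of ribosomal DNA, had medians of 78.7 and 16.0 CPM and a pooled level 2.62 times higher in the oocyte-like set. Its ranges overlapped, up to 169 and 156 CPM. Wdr43 and Utp15 belong to the same subcomplex. Wdr43 lay between, with medians of 70.9 and 82.8 CPM, and Utp15 just passed the limit, with 92.5 and 45.0 CPM. The call thus differed among members of 1 subcomplex.

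Heatr1, a processome scaffold, was lower by medians, 19.0 against 8.00 CPM, but not by pooled levels. Rrp12, an export factor of the small subunit, had 0 to 73.8 CPM (median 26.3) and 0 to 139.7 CPM (median 0). Its pooled ratio was 0.567 (interval 0.527 to 0.609), so it was lower by medians but not by pooled levels. Nop14, the partner of Noc4l, had 0 to 43.4 CPM (median 9.09) and 0 to 91.1 CPM (median 17.0). It was higher in pooled levels, by 2.22 (interval 2.07 to 2.39), but not by medians, and in pooled levels the pair thus went opposite ways. Bysl, of late assembly, lay between at 13.5 and 11.9 CPM, and Nob1, which makes the last cut of the small-subunit RNA, was too low to compare. The pooled ratio of Nob1 was 1.17, and 0.684 without library 31 alone.

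Of the 11 genes of large-subunit assembly, 9 were compared, of which 2 were higher, beside 18.1% of all genes, and 4 lower, beside 36.7%. Their median log2 ratio was -0.40, near the -0.37 of all genes, so the group as a whole did not stand out by these measures. Nop16, a factor of early large-subunit particles, had 0 to 179.9 CPM (median 2.57) in oocyte-like and 0 to 389 CPM (median 13.5) in 2-cell-like libraries. Its pooled level was 3.01 times higher in the 2-cell-like set (interval 2.83 to 3.20). Nop2, which methylates a cytosine of the large-subunit RNA, had 0 to 87.5 CPM (median 1.83) and 0 to 152 CPM (median 10.2). Its pooled ratio was 2.89 (interval 2.66 to 3.14), and 4.86 without library 61. Both had no count in part of each set: Nop16 was counted in 25 and 26 libraries, Nop2 in 26 and 28.

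On the lower side, Noc2l, which travels with early large-subunit particles, had 0 to 68.4 CPM (median 12.3) and 0 to 51.4 CPM (median 0). Its pooled level was 2.71 times higher in the oocyte-like set (interval 2.43 to 3.04). Ftsj3, a methyltransferase of the precursor, had 0.589 to 61.1 CPM (median 21.3) and 0 to 90.4 CPM (median 2.19), but a pooled ratio of 0.736 (interval 0.685 to 0.791), so it was lower by medians but not by pooled levels. The same held for Rrp1b, at 65.8 against 31.1 CPM and a pooled ratio of 0.561.

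The 3 proteins of the PeBoW complex, which acts on the large-subunit precursor, differed. Wdr12 was lower, with medians of 13.0 and 3.19 CPM and a pooled level 2.36 times higher in the oocyte-like set. Pes1 lay between, at 187 and 142 CPM, and Bop1 was too low to compare, at 3.11 and 0 CPM. Ebna1bp2 and Nifk, a binding partner of Ki-67, lay between as well, at 41.0 against 37.4 and 23.5 against 20.0 CPM. Noc3l was too low to compare by medians, at 9.55 and 0.929 CPM.

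Across 13 alternative ways of scaling, filtering and choosing libraries, 9 genes kept their call every time: Rrp9 and Nop16 as higher, and Mybbp1a, Dkc1, Wdr75, Utp4, Utp20, Noc4l and Noc2l as lower. A further 11, with Rrn3, Ncl, Npm1, Nolc1, Nop56 and Pes1 among them, lay between every time. Leaving out any 1 library changed no call of a member by medians. The shares of all genes that kept a call under these settings or removals were not computed, so these counts do not set the list apart. None of these settings split the sets by label. In the 2-cell-like set the median of Nop16 was 0.923 CPM in the 19 libraries labelled mutant oocyte. It was 28.5 CPM in wild-type oocyte, 93.1 CPM in mutant 2-cell and 0 in negative control libraries. Oocyte-like libraries labelled wild-type 2-cell had 14.0 CPM, so Nop16 was not higher under every label.

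Direction was mixed as well among 129 other genes of the pathway, of which 98 were compared: 22 were higher, beside 18.1% of all genes, and 44 lower, beside 36.7%, with a median log2 ratio of -0.63 against -0.37. Pooled levels gave 30 higher and 39 lower of 115, beside 22.2% and 26.9%, and a median of -0.02, equal to that of all genes. Pwp2, a processome core protein, had medians of 54.4 and 0 CPM and a pooled level 9.87 times higher in the oocyte-like set. Bms1, the processome's GTPase, had 224 and 17.8 CPM and was 6.70 times higher there. Mak16, of large-subunit assembly, had 0.534 and 25.5 CPM and was 3.94 times higher in the 2-cell-like set. Nol11, a partner of Utp4, had 0 and 16.4 CPM and was 5.98 times higher there, the opposite of Utp4. Imp4, Rcl1 and Imp3, also of small-subunit assembly, were higher by medians in the 2-cell-like set as well. Their medians were 43.7 and 156 CPM, 22.4 and 73.6 CPM, and 26.4 and 77.4 CPM. These genes were picked after their values were seen. The fall in the list's small-subunit genes thus did not extend to all genes of that role.

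Within a set, most pairs of members were weakly related. Over the 496 pairs of the 32 compared genes, the median Spearman rho across libraries was 0.01 in the oocyte-like and 0.13 in the 2-cell-like set. Over all pairs of genes it was 0.02 and 0.03. In the oocyte-like set 3.63% of pairs reached 0.5, beside 4.84% over all genes, and the closest were Nhp2 with Nop10 (0.87) and Ncl with Gnl3 (0.75). In the 2-cell-like set 2.42% reached it, beside 0.633% over all genes, led by Dkc1 with Nop16 (0.72), Dkc1 with Utp15 (0.65) and Nhp2 with Nop16 (0.61). The highest oocyte-like levels of Nhp2 and Nop10, 334 and 290.0 CPM, were in library 23, with 0.527% cumulus markers. Library 61, with 1.23%, had 116 and 158 CPM. The part of cumulus RNA in the rho of this pair was not tested. Depth, label and cumulus marker share differed among the libraries of a set, and some may share an embryo. These values therefore describe the libraries and carry no p.

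Zscan4d, a gene of the 2-cell burst, ranged from 0.548 to 988 CPM over the 39 2-cell-like libraries, and copies of its family can share reads. Of the 32 members, 3 had a rho with it of at least 0.5, beside 3.25% of all genes, and 0 had one of at most -0.5, beside 1.04%. The median rho was 0.06 over the members and -0.02 over all genes. The 3 were Nifk (0.56), Nop16 (0.52) and Nhp2 (0.51), followed by Nop2 (0.43). The lowest 4 were Noc4l (-0.25), Utp20 (-0.18), Ftsj3 (-0.16) and Utp4 (-0.15). Without the 2 libraries farthest from the median of Zscan4d the leading 3 gave 0.51, 0.58 and 0.58, and Pearson r of log2(CPM + 1) gave 0.53, 0.50 and 0.48.

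The 13 libraries lowest in Zscan4d had it at 0.548 to 83.0 CPM and the 13 highest at 250.3 to 988 CPM. Nifk had 0 to 38.1 CPM (median 10.7) in the low and 6.38 to 228 CPM (median 40.4) in the high libraries. Nop16 had 0 to 84.8 CPM (median 0) and 0 to 389 CPM (median 93.1), with a count in 4 and 10 of the 13. Nhp2 had 0 to 25.7 CPM (median 7.36) and 0 to 209 CPM (median 64.1). The low and high libraries overlapped for each of them, and the list's sum had medians of 1606 and 2073 CPM.

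The labels moved with Zscan4d. Of the 13 lowest libraries, 11 were labelled mutant oocyte and 2 negative control, and of the 13 highest, 8 were labelled mutant 2-cell, 4 wild-type oocyte and 1 mutant oocyte. Within the 19 labelled mutant oocyte the rho was 0.09 for Nifk, 0.39 for Nop16 and 0.72 for Nhp2. Within the 11 labelled mutant 2-cell it was 0.18, 0.16 and -0.03, and within the 7 labelled wild-type oocyte 0.11, 0.57 and 0.14. For Nifk the rho reached no more than 0.18 within any of these labels. Zscan4d had a rho of -0.23 with total counts, -0.05 with genes detected after thinning and 0.66 with Zfp352, which the rule used. Leaving out library 5, 6, 75, 81 or 88 left 1 of the 3 at or above 0.5.

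**Figure D3:**
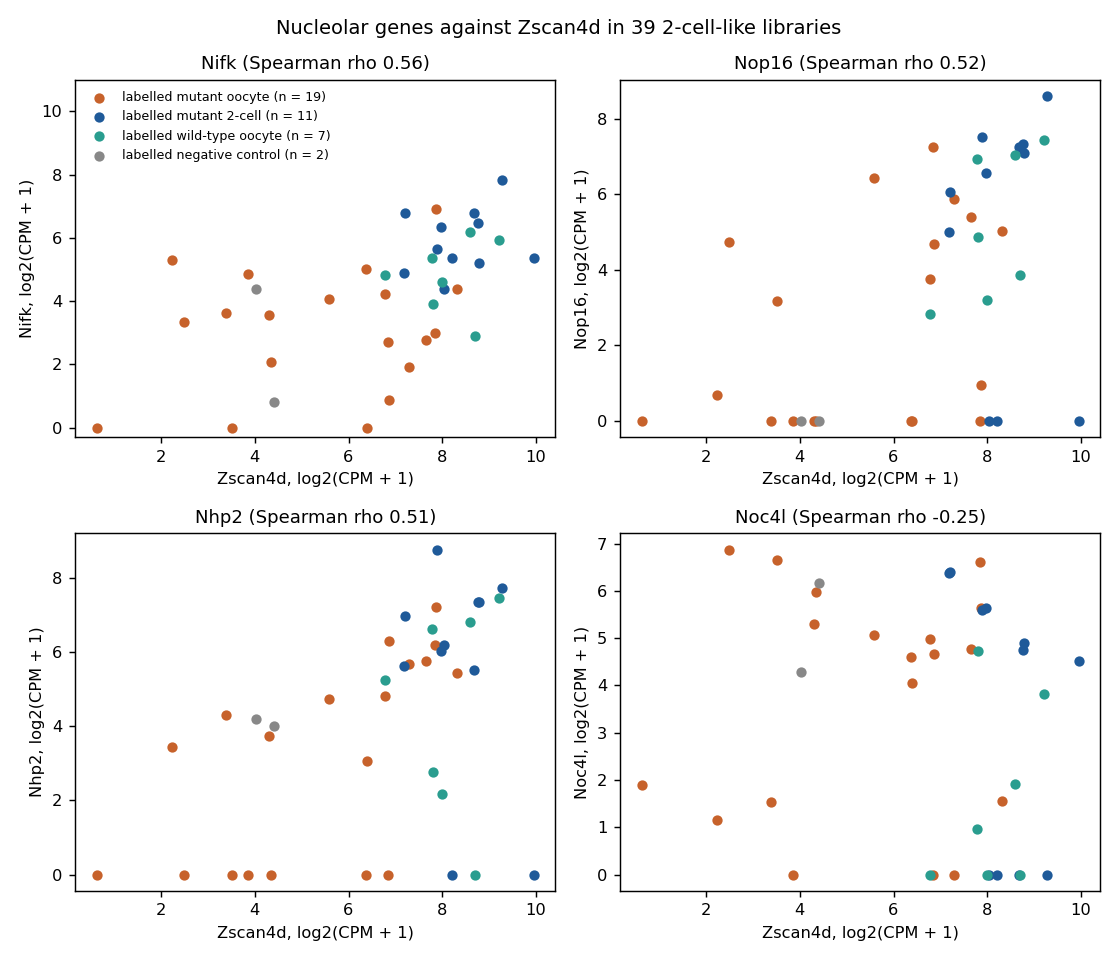
Levels of Nifk, Nop16, Nhp2 and Noc4l against Zscan4d in the 39 2-cell-like libraries, both axes log2(CPM + 1); each point is a library, coloured by its label. Libraries labelled mutant 2-cell and wild-type oocyte lie to the right, the lowest Zscan4d levels belong to libraries labelled mutant oocyte, and Noc4l shows no rise (rho -0.25).

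Genotype labels were compared within each set, leaving out negative controls. Whether the genotype words hold where the stage words do not cannot be read from gene counts, since the variant is a change of 1 residue. In the oocyte-like set 26 libraries were labelled wild type and 9 mutant. Of 29 members compared 0 were higher in the mutant label, beside 0.642% of all genes, and 1 was lower, beside 7.77%. This was Nhp2, with 1.10 to 140.0 CPM (median 23.5) in wild-type and 1.16 to 74.3 CPM (median 9.70) in mutant libraries. The call was lost on leaving out any 1 of 13 libraries. Without the libraries at or above 0.1% cumulus markers 0 members were called, while 1.11% of all genes were higher and 2.62% lower. By label, the median of Nhp2 was 7.94 CPM in wild-type oocyte, 36.2 CPM in wild-type 2-cell and 9.70 CPM in mutant 2-cell libraries, so the wild-type oocyte label was not above the mutant one. The median cumulus marker share of these labels was 0.0250, 0.101 and 0.0192%, and its part in the result was not tested. The list's sum had medians of 2465 and 2585 CPM, with ranges that overlapped.

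In the 2-cell-like set 7 libraries were labelled wild type, all of them oocyte by label, and 30 mutant. Of 27 members compared 6 were higher in the mutant label (Ubtf, Gnl3, Rrp9, Noc4l, Nop2 and Rrp1b), beside 15.3% of all genes, and 4 were lower (Polr1a, Fbl, Dkc1 and Nop14), beside 15.8%. By pooled levels 2 of these 10 calls stood, those of Noc4l and Polr1a. The pooled ratios of the others were 1.95 for Rrp9, 1.88 for Nop2, 1.68 for Ubtf, 1.15 for Gnl3, 0.828 for Dkc1, 0.717 for Nop14 and 0.625 for Fbl, beside that of Rrp1b given next. Noc4l had 0 to 25.6 CPM (median 0.942) in wild-type and 0 to 116 CPM (median 25.1) in mutant libraries, 15 of which lay above every wild-type one. Its pooled level was 5.70 times higher in the mutant label. Rrp1b had 0 to 93.5 CPM (median 0.694) and 0 to 207 CPM (median 32.6), a pooled ratio of 1.88. Leaving out 1 library ended the call of Ubtf (library 4, 7 or 8), Gnl3 (5, 6, 7 or 8), Rrp9 (2, 3, 4 or 5), Nop2 (5, 6 or 8) and Dkc1 (any 1 of 15). The 30 mutant libraries were 19 labelled oocyte and 11 labelled 2-cell. By label, the median of Polr1a was 12.0 CPM in wild-type oocyte, 0 in mutant oocyte and 15.3 CPM in mutant 2-cell libraries. Dkc1 had 121, 40.2 and 121 CPM and Nop2 6.99, 4.62 and 52.2 CPM in that order. The calls of these genes thus came from a single mutant label, while the other called genes lay on the called side in both. The list's sum was 1140.2 to 2797 CPM (median 1530.1) in wild-type and 703 to 3506 CPM (median 1952) in mutant libraries.

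**Figure D4:**
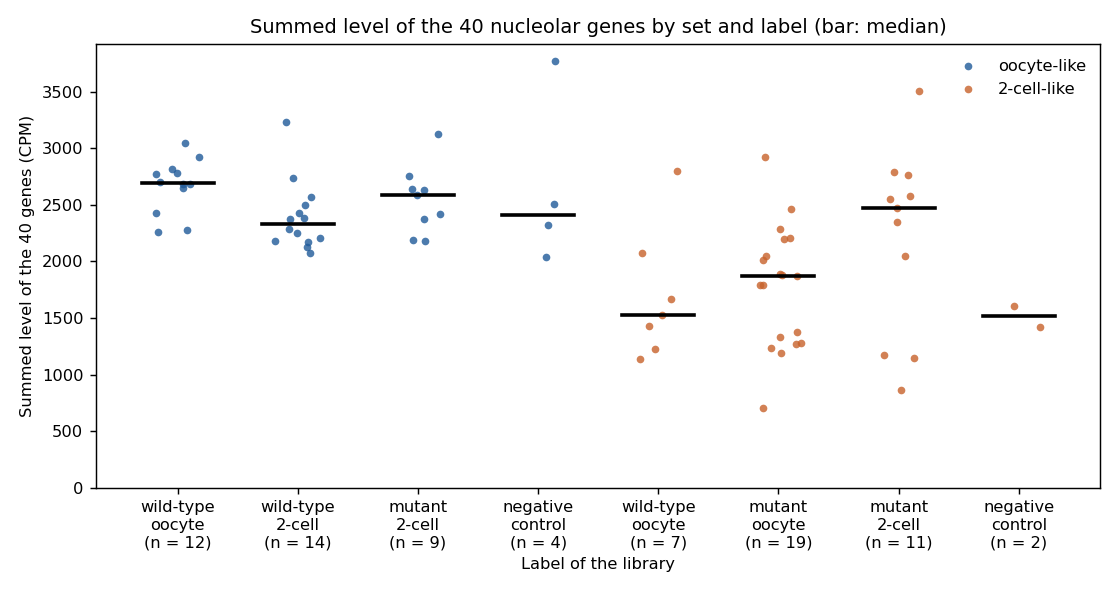
Summed level of the 40 genes in CPM (vertical axis, from 0) in each library of both sets, split by label along the horizontal axis; the bar is the median. Labels of the oocyte-like set have medians above those of the 2-cell-like libraries labelled oocyte or negative control, and the 2-cell-like set spans from 703 to 3506 CPM. The 2-cell-like libraries labelled mutant 2-cell, with a median of 2471 CPM, do not lie below the oocyte-like labels.

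Taking stage and genotype as the labels give them mixed the sets. Among 19 libraries labelled wild-type oocyte and 19 labelled mutant oocyte, 13 of 29 members compared were lower in the mutant label, beside 29.6% of all genes, and 1 was higher (Rrp9), beside 15.4%. By pooled levels 9 of these 14 calls stood, and Ftsj3 turned direction, with a ratio of 1.18. All 19 mutant libraries were 2-cell-like, against 7 of the 19 wild-type ones. Utp4 had 0 to 228 CPM (median 91.6) in the wild-type label and 0 to 32.5 CPM (median 3.35) in the mutant label. Within the 2-cell-like libraries of these labels its medians were 0 and 3.35 CPM, so Utp4 was not lower in the mutant label there. Wdr75, Utp20, Heatr1, Noc4l and Ftsj3 also had a higher median in the mutant label there, and Rrp12 had medians of 0. Polr1a, Mybbp1a, Nop58, Dkc1, Noc2l and Nifk stayed lower in the mutant label there. Dkc1 had medians of 121 and 40.2 CPM and Nop58 of 63.8 and 21.9 CPM. Genotype and set cannot be told apart in this comparison.

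Among libraries labelled 2-cell, 14 wild type and 21 mutant, 5 of 32 members were lower in the mutant label (Utp4, Utp20, Noc4l, Nop16 and Noc2l), beside 27.3% of all genes, and 1 was higher (Nop2), beside 5.77%. By pooled levels 1 of these 6 calls stood, that of Noc2l, with a ratio of 0.496. The pooled ratios were 0.794 for Utp4, 0.785 for Utp20, 0.721 for Noc4l and 1.63 for Nop2, and Nop16 turned direction, with 1.56. All 14 wild-type libraries were oocyte-like, against 9 of the 21 mutant ones. Within the oocyte-like libraries the medians of Utp4 were 116 CPM in the wild-type and 126 CPM in the mutant label, those of Utp20 86.5 and 95.6 CPM and those of Noc4l 125 and 105 CPM. Nop16 had 14.0 and 0 CPM there, Noc2l 11.5 and 14.0 CPM and Nop2 2.24 and 1.83 CPM. Leaving out library 73, 74 or 83 left 3 members called in all. Between genotype labels, the shares of all genes whose calls stood by pooled levels were not computed.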

How the data were processed

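The authors deposited unnormalized whole-number counts, 1 column for each library and 1 entry for each gene. The submitters' processing notes name Trim Galore 0.4.4, HISAT2 2.1.0, DESeq2 (version not stated) and the build GRCm39. The counting tool, its handling of strand and of repeated sequence, and the annotation are not given in the sources used here. Of 36983 table entries, 48 repeated a symbol and were summed into it. Each of the 96 columns was matched to a sample by its number, and 0 columns were left unmatched.

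CPM were computed per library from all gene counts. Libraries were kept, placed in sets and compared as described with the results, with Python 3.11.15, pandas 2.3.3, numpy 2.4.6 and scipy 1.17.1. Intervals are exact at 95%, Poisson for levels and conditional binomial for ratios. Because cells are not replicates and the labels name no animal, no count model was used for tests. edgeR 4.0.16 and DESeq2 1.42.0 gave alternative scalings alone. Where a set had a median of 0 there was no finite ratio of medians, and the pooled ratio gives the size. In medians of log2 ratios over several genes, such a gene was ranked as the lowest or the highest value. The computation of the comparison was checked on simulated data with known ratios, drawn from the oocyte-like profile and changed in better-expressed genes only. The simulation did not mimic the many counts of 0 in 2-cell-like libraries, so it does not bear on calls that rest on them.

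All 40 genes were accounted for. Full values were given for 6 members at either end of the ratios of medians, 4 members at either end of rho with Zscan4d, and always Ncl, Npm1, Fbl, Polr1a, Polr1b, Ubtf and Rrn3; other members named were chosen after their values were seen. The members, the other lists and the rules were chosen with earlier results of these data known. Alternatives changed the level (pooled, mean), scaling, filters, depth, the Mos and Zfp352 limits and the libraries used. Single cells were picked, per the labels, and no search for doublets was made. Promoter sequences are from RefSeq.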

Additional observations from a re-analysis of the deposited data

Results flagged for a closer look

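For the 7 genes always named and the sum over the list, the highest and lowest library of each label within a set that held 4 to 10 libraries (24 groups of values) were compared with the rest by Dixon's criterion, which chance passes in about 1 of 20 groups. Rrn3 was at 123 CPM in library 89, with the next of the 9 oocyte-like libraries labelled mutant 2-cell at 76.1 CPM. Fbl was at 48.0 CPM in library 23, with the next of the 4 oocyte-like libraries labelled negative control at 4.70 CPM. Ubtf was at 113 CPM in library 5, with the next of the 7 2-cell-like libraries labelled wild-type oocyte at 18.8 CPM.

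Library 86, labelled mutant 2-cell, fell in neither set and entered no comparison. Its 40 genes summed to 3069.9 CPM, and 34 of them had a count.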

How the results depend on the processing

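No single-library removal changed how many members were higher (4 in each of 78 removals) or lower (15 in each) in 2-cell-like libraries. The lower count was 7 of 36 with the mean of CPM, beside 27.2% of all genes, and 9 with both ratios past 2-fold, beside 24.8%. The setting of both ratios was added after the data were seen. Members called between genotype labels in oocyte-like libraries numbered 1, and 3 with pooled levels, 2 with the mean, 4 with a filter of 1 CPM or none, 10 after thinning and 0 without libraries rich in cumulus markers. Removals gave 0 to 1. Of all genes compared there, 0.429% were higher and 15.8% lower with pooled levels, and 0.201% and 8.57% with the mean. The shares were 3.38% and 18.2% with a filter of 1 CPM and 11.1% and 19.2% after thinning. In 2-cell-like libraries 10 became 19 with a filter of 1 CPM or none, and removals gave 8 to 11. With the filter of 1 CPM, 21.2% of all genes were higher there and 21.2% lower. For libraries labelled oocyte removals gave 13 to 16. For those labelled 2-cell, pooled levels gave 2, thinning 18 and removals 3 to 7. Of all genes there, 8.53% were higher and 11.7% lower with pooled levels, and 12.0% and 37.9% after thinning. Members rising with Zscan4d numbered 1 with Zfp352 of at least 10 CPM, and, in settings added later, 0 within the label mutant 2-cell and 8 within wild-type oocyte (7 libraries). Those falling with it numbered 6 and 4 there, and the shares of all genes within single labels were not computed. Removals gave 1 to 3 rising and 0 falling.

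Scaling moved the median log2 ratio of all genes between the sets by 0.35 with pooled levels or the mean, by -0.24 with TMM and by -0.20 with DESeq2 size factors. Of all called genes, 33.0% were higher by medians (1484 against 3011 lower), 45.2% by pooled levels (2229 against 2699), 25.3% with TMM and 26.6% with DESeq2 size factors. Between genotype labels in 2-cell-like libraries the share was 49.1% by medians and 73.5% by pooled levels, among libraries labelled oocyte 34.2% and 46.1%, and among those labelled 2-cell 17.5% and 42.2%. For the list, TMM gave 3 higher and 16 lower genes of 31 between the sets, beside 14.1% and 41.5% of all genes. DESeq2 size factors gave 3 and 15 of 32, beside 14.7% and 40.5%. No named member called higher or lower between the sets was called the other way under an alternative. Of those not compared, Polr1b was higher with pooled levels or the mean and lower with a filter of 1 CPM or none, and Ubtf was higher with the mean and lower after thinning. Rrp12, Noc2l and Polr1b, at a median of 0 in 2-cell-like libraries, gave no finite ratio of medians. No paired analysis was possible because the replicate numbers are unique and the groups share none.

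Limits: with no molecular identifiers and no named animals, intervals cover counting error alone, and many members were near the level of single counts in 2-cell-like libraries, so a median of 0 is not absence.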

Other observations

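In library 86, whose oocyte markers took 0.000800% of counts and whose cumulus and granulosa markers took 0.667%, 4 members lay above every other kept library: Nop10 at 308 CPM, Ftsj3 at 165 CPM, Fbl at 74.5 CPM and Gar1 at 24.8 CPM. The highest levels elsewhere were 290.0, 90.4, 48.0 and 21.6 CPM. Utp20 was at 0.421 CPM and Utp4 at 3.37 CPM there, below every oocyte-like library for both genes. This is 1 library and carries no comparison.

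Among other pathway genes, Znhit3, a factor in the assembly of small nucleolar particles, had medians of 6.48 and 126 CPM in oocyte-like and 2-cell-like libraries and a pooled level 11.7 times higher in the latter. Its rho with Zscan4d was 0.67 over the 39 2-cell-like libraries. The labels moved with Zscan4d, and the rho of Znhit3 within single labels was not computed. Abt1 had 3.74 and 38.7 CPM and was 8.41 times higher in 2-cell-like libraries, with a rho of 0.12. Sbds, which takes part in releasing the large subunit for translation, had 239 and 35.9 CPM and was 5.64 times higher in oocyte-like libraries. These genes were chosen after their values were seen.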
